A study of Rattus norvegicus with 50 samples.

Results

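Lungs of rats that inhaled nickel subsulfide at 0.08 mg/m3 for 4 weeks were compared with lungs of rats that breathed air without it for the same time. The comparison took in 10 of the 50 arrays of a rat inhalation study, namely the 5 arrays labelled with this concentration and time and the 5 controls of that time, and every one of the 13438 genes reached by a probe set with a single gene symbol. Both groups were male Fischer 344 (CDF) rats, 7 to 8 weeks old on receipt, with no genetic modification or other agent named in the labels. Nickel subsulfide (Ni3S2) dissolves slowly in the lung and is a known lung carcinogen of rats; 0.08 mg/m3 corresponds to about 0.06 mg of nickel per m3. Animals were exposed 6 hours daily, 5 days weekly, which made 20 exposure days. Each group held 13 animals, of which 8 were set aside for expression and nickel burden, and the 5 with the best RNA went on arrays. Those 5 were therefore chosen by RNA quality and not at random. The other groups of the study inhaled 0.04, 0.15 or 0.60 mg/m3, or were exposed for 1 week.

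RNA came from distal airway tissue dissected from the right caudal lung and was read on Affymetrix HT rat arrays. Values are log2 intensities, so a difference of 1 is a doubling, and a change is the exposed mean minus the control mean with its standard error (SE). A gene was called where the limma adjusted p was under 0.05, and "rose" or "fell" is used of called genes alone. There were 5 arrays a group, which limits the precision. In tissue RNA, fewer cells of a type and less RNA per cell cannot be told apart.

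The dissected tissue is a mixture. In rats, heart-type muscle runs from the left atrium along the pulmonary veins into the lung, and smooth muscle surrounds the airways and arteries. Lymphoid follicles lie beside the bronchi and are entered by lymphocytes through high endothelial venules, which display ligands for L-selectin. Inhaled nickel particles are taken up by alveolar macrophages and can draw inflammatory cells into the airspaces, and dissolved nickel inhibits the oxygen-sensing prolyl hydroxylases.

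The tissue label was met by its markers. The 14 measured genes of alveolar type 2 cells averaged 10.45 to 10.55 in exposed and 10.35 to 10.60 in control arrays, and the 9 genes of club cells 11.23 to 11.47 in exposed and 11.33 to 11.61 in control arrays. One library stood apart. Over all genes, exposed replicate 1 correlated with the other 4 exposed arrays at 0.956 to 0.967, while the other 9 arrays correlated among themselves at 0.982 to 0.998. In replicate 1, 299 genes lay more than 1 log2 unit above the highest of the other 9 arrays, and no other array had more than 2 such genes. The 23 skeletal muscle genes averaged 9.48 in replicate 1, 4.11 to 4.48 in the other exposed arrays, and 3.89 to 4.08 in controls. The 19 squamous epithelium genes averaged 8.82 in replicate 1, 5.34 to 5.60 in the other exposed arrays, and 5.36 to 5.64 in controls. Among the 10 genes in which replicate 1 stood furthest out were Krt13, a keratin of squamous epithelium, and Tnnc2, the troponin C of fast skeletal muscle. Counts of calls are therefore given with all 5 exposed arrays and without replicate 1, and so are the genes named singly where a call was lost or gained or a called value moved by more than 1.5 times. Called genes with a single value below kept their call without it.

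At 0.08 mg/m3 1147 genes were called, 8.54% of those tested; 762 were higher (5.67%) and 385 lower (2.87%). Rises made up 66.4% of the calls and were the larger changes, since 310 rises and 56 falls reached 1.5-fold. Without replicate 1 the count was 1311 (9.76%), with 942 higher (7.01%) and 369 lower (2.75%), so that 71.9% were rises. The 2 sets shared 930 genes, none of them with opposite signs. A further 217 genes were called only with replicate 1, and 381 only without it. The exposed and control arrays did not overlap in 8.19% of genes with all arrays and in 13.9% without replicate 1. The median change over all genes was -0.0023 with all arrays and 0.0078 without replicate 1. The balance of rises and falls depended on the scaling, for rises were 39.2% of 1473 calls after centring each array on its median and 53.3% of 1153 calls after quantile normalization. Single genes were followed through 14 alternatives (4 settings of the fit and the omission of each of the 10 arrays). Not every gene named below as called was followed, and Tnnt2, Myl4, Mybpc3, Tagln, Acta2 and Myh11 are among those that were not. Modelling the 10 arrays alone ended the call of 53 of the 148 called genes followed. Among them were Ckm, Ttn, Mybphl, Cpt1b, Eno3, Pygm, Ryr2, Egln3, Ccl21, RT1-Db1, Ncr1 and Slc39a14.

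**Figure D1:**
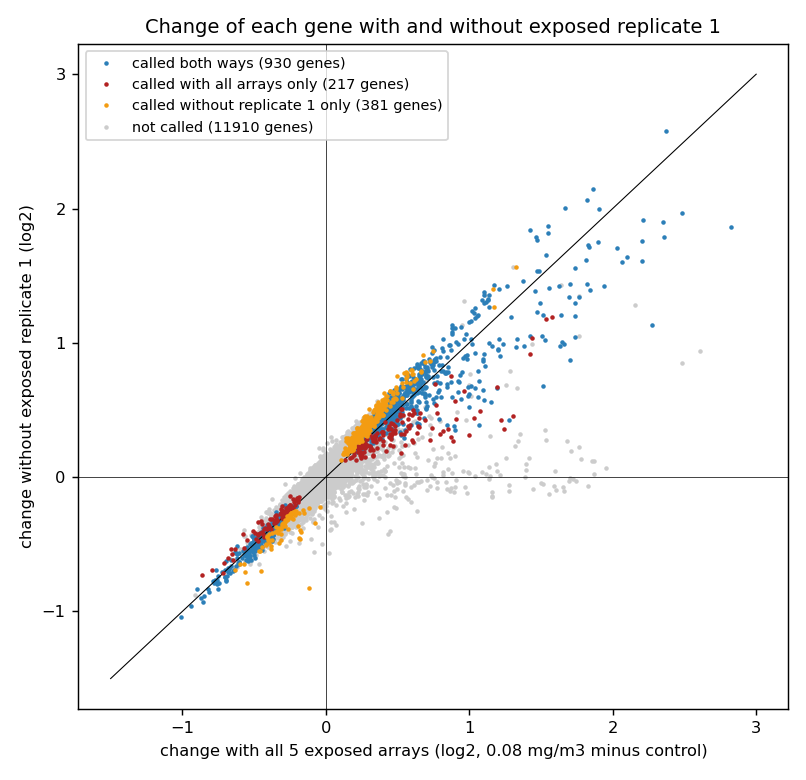
Change of each of the 13438 genes (log2, 0.08 mg/m3 minus control at 4 weeks) with all 5 exposed arrays on the horizontal axis and without exposed replicate 1 on the vertical axis; colours show in which fit a gene was called, and the diagonal marks equal change. The 930 genes called both ways have the same sign in both fits, some of them well off the diagonal (Ckm changed by 2.82 and 1.86), and a row of uncalled genes with changes of up to about 2 with all arrays lies near 0 without replicate 1.

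Genes of heart muscle formed the largest rise of any cell type list. Of 22 measured members 14 rose and 0 fell, with a median change of 1.46, and without replicate 1 16 rose with a median of 1.43. When the 10 arrays were modelled alone, with the spread estimated from them only, 7 members were called. The mean of the list in exposed arrays 1 to 5 was 8.29, 8.52, 8.34, 7.92 and 7.33, and in control arrays 1 to 5 it was 7.13, 6.71, 5.97, 6.28 and 7.14. All 5 exposed arrays lay above all 5 controls, though replicate 5 exceeded the highest control by little. Skeletal muscle also expresses some genes of the list, such as Ttn and Actn2, and the skeletal muscle list averaged 9.48 in replicate 1. The part of skeletal muscle in the heart list mean of that array was not tested, and genes more restricted to heart are given below. The controls also differed among themselves by more than 1 log2 unit, with replicates 1 and 5 highest. How much pulmonary vein each dissected piece held is not recorded in the sources used here, and it cannot be told apart from a change within the muscle cells.

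Actn2, the alpha-actinin that anchors actin filaments at the Z disc of striated muscle, measured 9.51, 7.67, 7.58, 7.47 and 6.19 in exposed arrays and 5.85, 5.30, 4.43, 5.11 and 5.97 in controls. The groups did not overlap, and replicate 1 was the highest array. The change was 2.35 ± 0.35 (SE), or 5.11-fold, with an adjusted p of 2.58e-05, and 1.90 ± 0.31 (adjusted p = 7.37e-05) without replicate 1. Ttn encodes titin, the elastic filament that spans the sarcomere. It measured 10.57, 8.22, 7.93, 7.44 and 6.79 in exposed arrays and 6.59, 5.94, 5.02, 5.57 and 6.83 in controls, for a change of 2.20 ± 0.43 (SE, adjusted p = 0.000776) and 1.61 ± 0.37 (adjusted p = 0.0037) without replicate 1. Its groups overlapped, since exposed replicate 5 lay just below control replicate 5. Csrp3, the muscle LIM protein of the Z disc, rose by 1.90 ± 0.47 (SE, adjusted p = 0.00772), and Smpx, a small muscle protein, by 1.81 ± 0.43 (SE, adjusted p = 0.00551). Hrc, which binds calcium inside the sarcoplasmic reticulum, rose by 1.84 ± 0.32 (SE, adjusted p = 0.000199).

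Skeletal as well as heart muscle expresses those 5 genes, and replicate 1 was the highest array for each. Of genes more restricted to heart, Lrrc10, Mybphl and Mybpc3 had another order. Lrrc10 and Mybphl were named for their large rises in the fit without replicate 1. A low replicate 1 is therefore partly built into that choice. The array order of Myh6, Tnnt2 and Myl4 is not given here. Lrrc10, a cardiac leucine-rich repeat protein, measured 4.91, 7.18, 6.93, 6.68 and 5.57 in exposed arrays and 4.92, 4.71, 3.83, 4.32 and 5.16 in controls. Replicate 1 lay among the controls, replicates 2 to 4 were highest, and replicate 5 lay above the highest control. Its change was 1.67 ± 0.39 (SE, adjusted p = 0.00424) with all arrays and 2.0 ± 0.38 (adjusted p = 0.000557) without replicate 1. Mybphl, a myosin-binding protein abundant in atrium, and Mybpc3, the cardiac myosin-binding protein C, followed the same order, at 1.55 (adjusted p = 0.00636) and 1.17 (adjusted p = 0.00322) with all arrays. Tnnt2, cardiac troponin T, and Myl4, the atrial myosin light chain, rose by 1.47 (adjusted p = 0.0167) and 1.46 (adjusted p = 0.0371). Myh6, the alpha myosin heavy chain of heart, was not called, with 11.23 ± 0.73 in exposed and 9.93 ± 0.60 in control arrays (SD, n = 5 each) and a change of 1.31 ± 0.55 (SE, adjusted p = 0.137). The iron hormone hepcidin, Hamp, which atrial muscle makes besides liver, rose by 1.42 (adjusted p = 0.0456) and by 1.84 (adjusted p = 0.00668) without replicate 1. The call of Hamp was lost in 9 of the 14 alternatives, including those without exposed replicate 2, 3 or 4 or control replicate 2, 3, 4 or 5, with adjusted p of up to 0.142. Hjv, hemojuvelin, a bone morphogenetic protein co-receptor made in liver and striated muscle, measured 9.65, 7.60, 7.33, 7.22 and 6.06 in exposed arrays and 5.55, 4.84, 4.67, 4.60 and 5.78 in controls. Its groups did not overlap, and the change was 2.48 ± 0.43 (SE, adjusted p = 0.000212) and 1.96 ± 0.40 (adjusted p = 0.00113) without replicate 1.

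Promoter sequences are printed for the 4 heart muscle genes whose promoter held a box for MEF2, the transcription factor family of muscle genes. All 4 rose, and replicate 1 was highest for Ttn and Smpx but not for Mybpc3. The RefSeq promoter table (build GRCr8) gives 250 bases before to 50 bases after each gene's start; it held 17 of the 22 genes. The box was searched by its consensus on both strands of that window, and capitals mark it. The Ttn promoter lies at chr3:82332061-82332360 on the minus strand, the Smpx promoter at chrX:41107088-41107387 on the minus strand, the Casq2 promoter at chr2:192214306-192214605 on the plus strand, and the Mybpc3 promoter at chr3:97550811-97551110 on the plus strand. Their boxes begin 166, 101, 149 and 109 bases before the start, in the order just given.
Ttn: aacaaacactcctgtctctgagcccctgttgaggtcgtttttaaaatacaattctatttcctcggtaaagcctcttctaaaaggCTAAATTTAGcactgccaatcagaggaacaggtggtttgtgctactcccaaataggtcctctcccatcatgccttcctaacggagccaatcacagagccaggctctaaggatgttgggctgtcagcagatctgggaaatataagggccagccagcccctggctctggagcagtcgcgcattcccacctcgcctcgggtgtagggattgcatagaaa
Smpx: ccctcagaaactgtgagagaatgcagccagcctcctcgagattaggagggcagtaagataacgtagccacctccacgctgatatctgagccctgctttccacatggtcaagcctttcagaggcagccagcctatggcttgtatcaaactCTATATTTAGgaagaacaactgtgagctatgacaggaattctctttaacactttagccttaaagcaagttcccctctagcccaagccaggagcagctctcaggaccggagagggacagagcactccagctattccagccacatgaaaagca
Casq2: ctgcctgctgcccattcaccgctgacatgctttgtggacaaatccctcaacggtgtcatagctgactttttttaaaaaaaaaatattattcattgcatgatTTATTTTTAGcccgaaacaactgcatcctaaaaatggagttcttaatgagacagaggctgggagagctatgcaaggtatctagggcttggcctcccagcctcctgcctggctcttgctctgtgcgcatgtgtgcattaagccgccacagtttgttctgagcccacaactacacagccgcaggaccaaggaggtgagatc
Mybpc3: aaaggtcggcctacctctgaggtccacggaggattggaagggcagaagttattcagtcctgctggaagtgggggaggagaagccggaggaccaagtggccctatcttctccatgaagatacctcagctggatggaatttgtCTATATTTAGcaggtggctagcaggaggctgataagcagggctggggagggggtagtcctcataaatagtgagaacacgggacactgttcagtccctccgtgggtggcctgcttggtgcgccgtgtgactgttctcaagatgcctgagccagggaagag
Casq2 encodes the calsequestrin of heart, the calcium store protein of the sarcoplasmic reticulum, and rose by 1.46 ± 0.26 (SE, adjusted p = 0.000215). A box stood in 23.5% of these 17 heart muscle promoters, in 0 of 15 smooth muscle promoters, and in 1.64% of the 11057 promoters of tested genes. Other muscle lists held it too: 2 of 15 promoters of muscle mitochondria and energy genes (13.3%), 2 of 21 of skeletal muscle (9.52%) and 1 of 19 of calcium handling and excitation (5.26%). Over all 27457 promoters in the table the share was 3.37%. Among the genes that rose, 25 of 588 promoters held it (4.25%), and among those that fell 3 of 306 (0.98%). A match describes letters in this window and not a bound site.

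Energy genes of striated muscle rose too. Of 16 measured genes of muscle mitochondria and energy supply 11 rose and 0 fell, with a median of 0.69; without replicate 1 10 rose. Ckm, the creatine kinase of muscle cytosol, had the largest rise of any called gene that separated the groups. It measured 11.90, 7.76, 7.46, 7.26 and 5.96 in exposed arrays and 5.76, 5.39, 4.48, 4.79 and 5.81 in controls. Replicate 1 was far above the rest, replicates 2 to 4 lay clearly above the controls, and replicate 5 was next to the highest control. The change was 2.82 ± 0.56 (SE), or 7.07-fold, with an adjusted p of 0.000934, and 1.86 ± 0.41 (adjusted p = 0.00241) without replicate 1, where the fold was 3.64. Ckmt2, the creatine kinase of muscle mitochondria, and Mb, myoglobin, the oxygen store of muscle, rose by 2.21 ± 0.57 (SE, adjusted p = 0.01) and 2.20 ± 0.55 (SE, adjusted p = 0.00798). Cox6a2, the heart and muscle form of a cytochrome oxidase subunit, rose by 1.84 ± 0.37 (SE, adjusted p = 0.00125). Fabp3, the fatty acid carrier of heart, and Cpt1b, which admits fatty acids to muscle mitochondria, rose by 1.53 (adjusted p = 0.00477) and 1.82 (adjusted p = 0.00226). Cmya5, a muscle protein known as myospryn, and Dhrs7c, a dehydrogenase of the sarcoplasmic reticulum, were also among the 12 largest rises, at 2.10 (adjusted p = 5.1e-05) and 1.94 (adjusted p = 7.49e-05).

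Of 21 measured genes of calcium handling and excitation 7 rose with all arrays and 7 without replicate 1, but not the same 7. Trdn, triadin, was called with all arrays alone, at 1.24 (adjusted p = 0.0382) against 0.36 (adjusted p = 0.0693) without replicate 1. Kcnj5, a potassium channel subunit of atrium, was called without replicate 1 alone, at 0.46 (adjusted p = 0.00987) against 0.29 (adjusted p = 0.172) with all arrays. Ryr2, the calcium release channel of heart, rose by 1.55 (adjusted p = 0.0106), and Pln, phospholamban, which restrains the calcium pump, by 1.21 (adjusted p = 0.00243). Sln, sarcolipin, which also restrains the pump, rose by 2.07 (adjusted p = 0.00475). Kcna5, a voltage-gated potassium channel of atrial and pulmonary artery muscle, measured 4.98, 5.46, 5.12, 5.94 and 5.11 in exposed arrays and 4.04, 3.75, 4.20, 3.62 and 4.15 in controls. Its groups were clearly apart in every array, replicate 5 included, and the change was 1.37 ± 0.26 (SE, adjusted p = 0.000451).

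**Figure D2:**
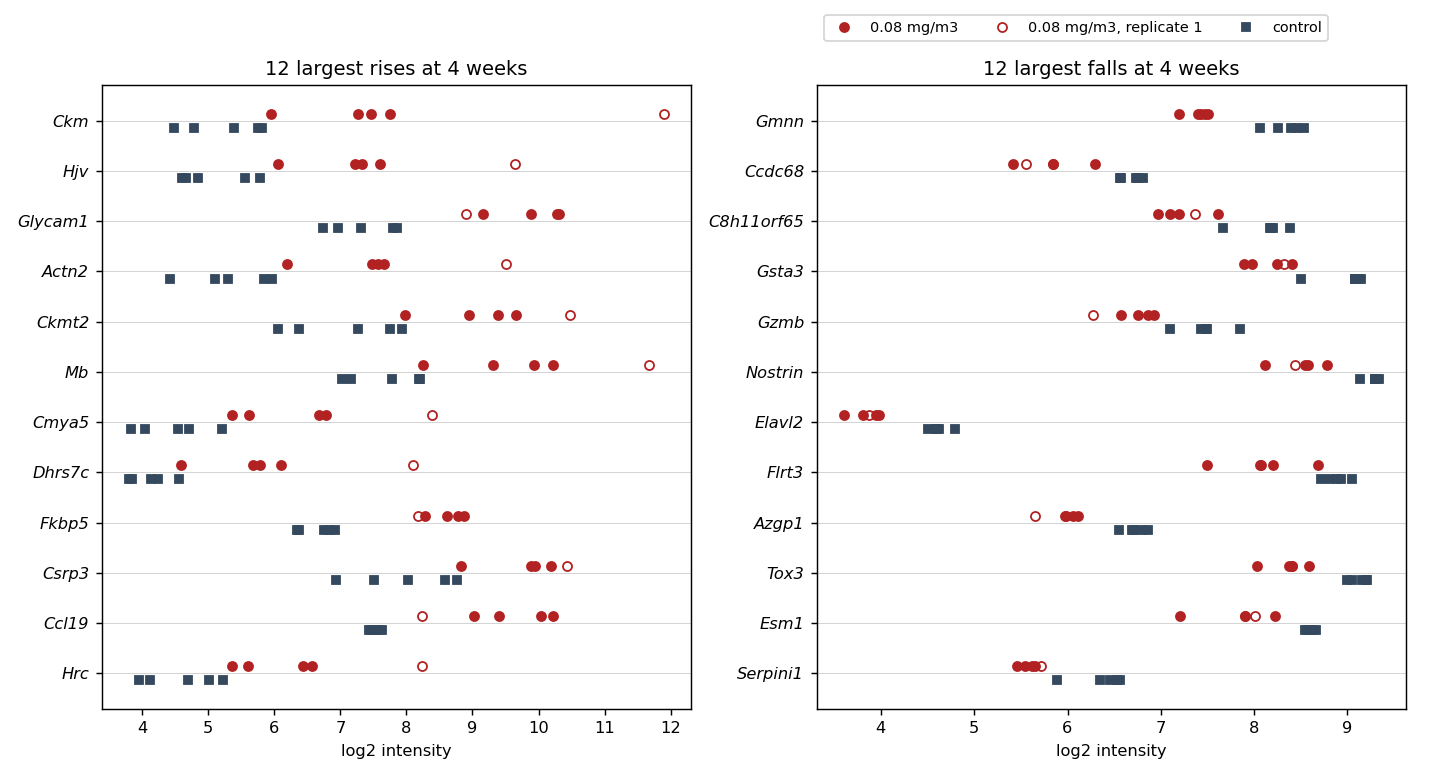
Log2 intensity in each array for the 12 largest rises (left) and the 12 largest falls (right) among genes called at 0.08 mg/m3 whose arrays do not overlap, with symbols starting with LOC, RGD or ENSRNOG left out. Circles are exposed arrays (open: replicate 1) and squares are controls. For Ckm the open circle lies at 11.90 while the other exposed arrays lie at 5.96 to 7.76, whereas for Fkbp5, Glycam1 and Gmnn replicate 1 lies among or near the other exposed arrays.

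The skeletal muscle list depended on replicate 1. With all arrays 5 of 23 members rose, with a median of 1.34; without it 4 rose and the median was 0.12. Acta1, skeletal alpha-actin, measured 12.90, 4.94, 4.41, 4.86 and 4.0 in exposed arrays and 3.65, 3.74, 3.49, 3.66 and 3.51 in controls. A single array, replicate 1, lay near the top of the scale, while the other 4 lay slightly above all 5 controls. It was not called, with a change of 2.61 ± 0.91 (SE, adjusted p = 0.0613) and 0.94 ± 0.60 (adjusted p = 0.353) without replicate 1. Eno3, the muscle enolase, and Pygm, the muscle glycogen phosphorylase, did rise both ways: Eno3 by 1.70 (adjusted p = 0.0038) with all arrays and 0.87 (adjusted p = 0.00104) without replicate 1, and Pygm by 1.65 (adjusted p = 0.000539) and 1.0 (adjusted p = 7.37e-05). The squamous list had 0 calls with all arrays, and without replicate 1 Perp, a desmosomal protein, fell by 0.46 (adjusted p = 0.00239), against a difference of -0.18 (adjusted p = 0.516) with all arrays. The count of skeletal calls was 9 without exposed replicate 3 or without exposed replicate 5, and 1 when the 10 arrays were modelled alone.

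Smooth muscle genes, whose proteins contract the walls of airways and vessels, rose as well. Of 20 measured members 13 rose and 0 fell, with a median of 0.79; without replicate 1 14 rose with a median of 0.73. The list averaged 8.29, 8.30, 8.03, 8.58 and 7.91 in exposed arrays and 7.72, 7.52, 7.47, 7.47 and 7.54 in controls. Every exposed array lay above every control, and replicate 4 was highest. Des, desmin, the intermediate filament of muscle, measured 9.57, 8.89, 8.58, 9.68 and 8.15 in exposed arrays and 7.59, 7.43, 7.34, 7.40 and 7.32 in controls. The groups did not overlap, replicates 1 and 4 were highest, and the change was 1.56 ± 0.23 (SE), or 2.94-fold, with an adjusted p of 2.81e-05. Heart and skeletal muscle also express Des, as they do Ldb3, which had the largest rise of the list, at 1.69 (adjusted p = 8.07e-05). The part of striated muscle in these 2 rises was not tested. Actg2, the enteric smooth muscle actin, measured 8.88, 9.50, 9.04, 10.32 and 9.20 in exposed arrays and 8.12, 8.41, 8.31, 8.30 and 8.10 in controls. Replicate 4 was again highest, every exposed array exceeded the controls, and the change was 1.14 ± 0.20 (SE, adjusted p = 0.000188). Cnn1, calponin, a regulator of smooth muscle contraction, and Tagln, transgelin, an actin cross-linker, rose by 1.0 (adjusted p = 0.00418) and 0.82 (adjusted p = 0.000302). Synpo2, an actin-binding protein of the Z disc and of smooth muscle, rose by 0.98 (adjusted p = 2.58e-05). Acta2 and Myh11, the smooth muscle actin and myosin heavy chain that define the cell type, rose by 0.75 (adjusted p = 0.00407) and 0.71 (adjusted p = 0.012). Without replicate 1 all of these were called as well. The heart muscle list moved in the same arrays, but replicate 4 was among the lower exposed arrays for heart genes and the highest for smooth muscle genes.

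**Figure D3:**
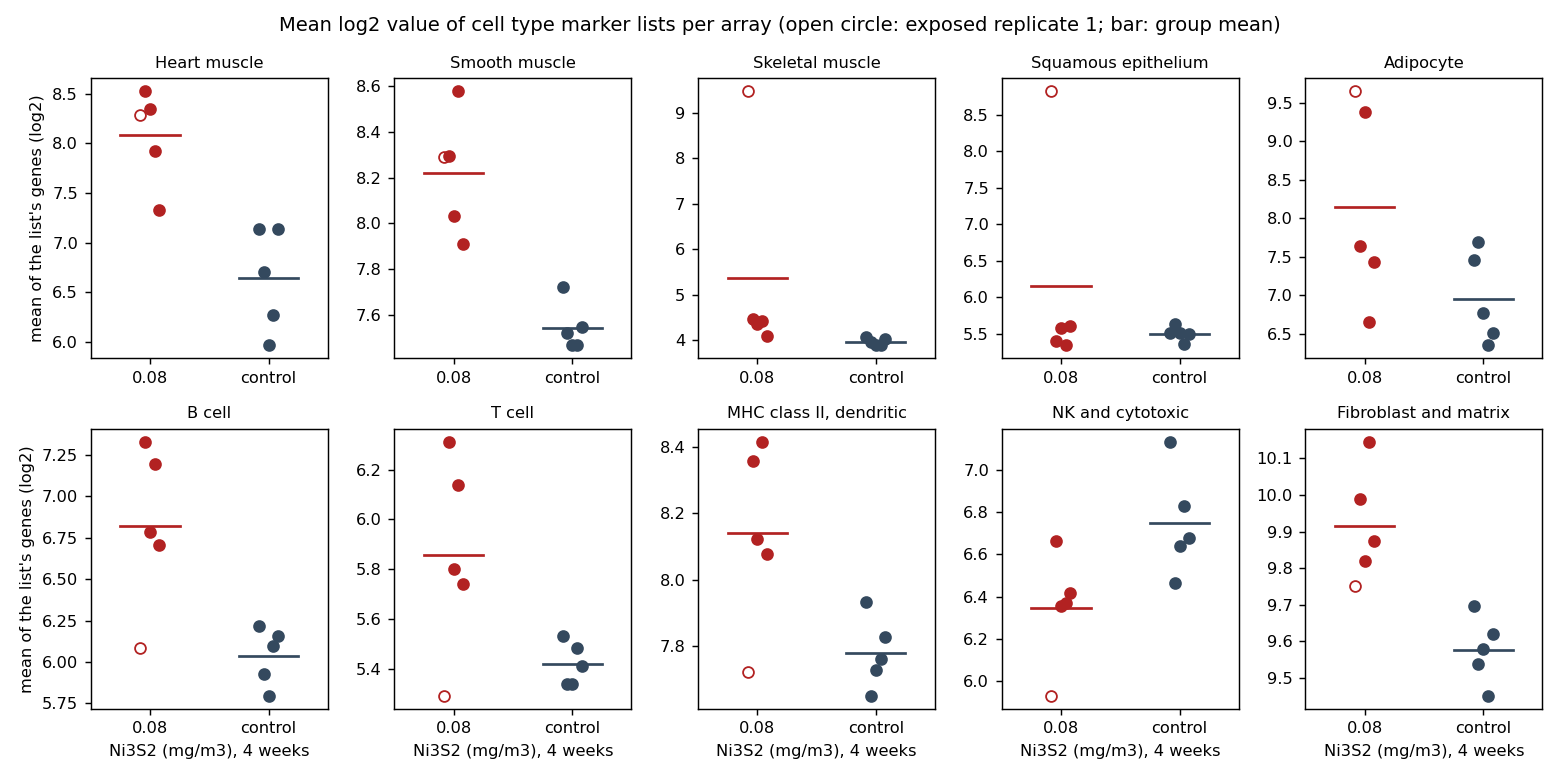
Mean log2 value of the genes of 10 cell type lists in each exposed (left) and control (right) array at 4 weeks; open circles are exposed replicate 1 and bars are group means. Heart, smooth muscle and matrix lists lie higher in all 5 exposed arrays, replicate 1 stands apart for skeletal muscle and squamous epithelium, and it lies with or below the controls for the B cell, T cell and MHC class II lists. Some genes of the heart list are also expressed in skeletal muscle.

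Fibroblast and matrix genes rose to a smaller extent. Of 22 measured members 8 rose and 0 fell, with a median of 0.37; without replicate 1 10 rose. The count lay between 4, without exposed replicate 4 or control replicate 4, and 10, when single arrays were left out. Fbln1, fibulin 1 of elastic fibres and basement membranes, measured 7.52, 8.12, 8.03, 8.60 and 7.81 in exposed arrays and 7.56, 7.10, 7.34, 7.25 and 7.39 in controls. Replicate 1 lay just below the highest control and replicate 4 was highest, with a change of 0.69 ± 0.15 (SE, adjusted p = 0.00182). Col1a1, a chain of type I collagen, rose by 0.65 (adjusted p = 0.0203), and Col6a2, a chain of the microfibrillar type VI collagen, by 0.59 (adjusted p = 0.00505). The gelatinase Mmp2, made by fibroblasts, rose by 0.47 (adjusted p = 0.0118). The call of Col1a1 was lost in 4 of the 14 alternatives, including those without exposed replicate 2 or 4 or control replicate 4, with adjusted p of up to 0.113. The call of Mmp2 was lost in 2 of the 14 alternatives, including those without exposed replicate 4, with adjusted p of up to 0.0826. Of 16 complement genes 6 rose with all arrays and 6 without replicate 1, but not the same 6. Cfd, complement factor D, was called with all arrays alone, at 0.87 (adjusted p = 0.0278) against 0.75 (adjusted p = 0.0713) without replicate 1. Serping1, the C1 inhibitor, was called without replicate 1 alone, at 0.46 (adjusted p = 0.0297) against 0.40 (adjusted p = 0.0548) with all arrays. Those called both ways included C1r, a protease of the first component, by 0.50 (adjusted p = 0.000314) and C1qb, a chain of its recognition unit, by 0.64 (adjusted p = 0.00673). The smooth muscle and lymphoid lists moved in the same arrays as these genes, and their part in the matrix and complement results was not tested.

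Adipocyte genes were uneven between animals. Of 13 measured members 3 rose with all arrays, and 1, Plin4, without replicate 1. The list averaged 9.65, 7.64, 9.38, 6.65 and 7.43 in exposed arrays and 7.46, 7.70, 6.77, 6.35 and 6.51 in controls. Replicates 1 and 3 were far above the other arrays, and the rest overlapped with controls. Plin4, a coat protein of lipid droplets, was high in every exposed array, at 9.17, 7.95, 8.81, 7.42 and 7.18 against 6.65, 6.97, 6.21, 5.98 and 6.21 in controls, with a change of 1.70 ± 0.33 (SE, adjusted p = 0.000585). Leaving out single arrays gave 1 to 10 called members, with 10 when exposed replicate 4 was left out. Ucp1, the uncoupling protein of brown fat, named after its values were seen, measured 11.01, 5.31, 11.27, 3.61 and 6.33 in exposed arrays and 6.62, 7.70, 5.58, 3.40 and 3.44 in controls and was not called (adjusted p = 0.355). It was highest in replicates 1 and 3.

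Genes of lymphoid follicles and their venules rose. Of 11 measured members 5 rose and 0 fell, with a median of 0.56; without replicate 1 6 rose with a median of 0.68. The list averaged 6.70, 7.45, 7.14, 7.39 and 6.98 in exposed arrays and 6.26, 6.40, 6.31, 6.28 and 6.48 in controls. All exposed arrays lay above the controls, with replicate 1 lowest of the 5. Glycam1, a mucin-like L-selectin ligand of high endothelial venules, measured 8.91, 10.31, 9.88, 10.28 and 9.16 in exposed arrays and 6.74, 7.80, 6.96, 7.31 and 7.86 in controls. The lowest exposed array was about 1 log2 unit above the highest control, and the change was 2.37 ± 0.64 (SE), or 5.18-fold, with an adjusted p of 0.0137. Ccl19, the chemokine that guides T cells and dendritic cells through CCR7, measured 8.24, 10.22, 9.41, 10.04 and 9.02 in exposed arrays and 7.43, 7.56, 7.52, 7.48 and 7.63 in controls. The controls were close together, replicate 1 was nearest to them, and the change was 1.86 ± 0.34 (SE, adjusted p = 0.000351) and 2.15 ± 0.34 (adjusted p = 6.95e-05) without replicate 1. Cxcl13, the chemokine that draws B cells into follicles, measured 9.25, 9.74, 9.27, 9.72 and 9.29 in exposed arrays and 7.83, 8.22, 8.08, 7.54 and 8.17 in controls. Here replicate 1 lay with the other exposed arrays, and the change was 1.49 ± 0.31 (SE, adjusted p = 0.00139). Ccl21, the other CCR7 ligand, rose by 0.57 (adjusted p = 0.00269), and Cr2, the complement receptor of B cells and follicular dendritic cells, by 0.94 (adjusted p = 0.0368). The call of Cr2 was lost in 9 of the 14 alternatives, including those without exposed replicate 2, 3, 4 or 5 or control replicate 1, 2, 3 or 4, with adjusted p of up to 0.116.

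B cell genes rose in the same arrays. Of 10 measured members 7 rose and 0 fell, with a median of 0.92; without replicate 1 9 rose with a median of 1.11. The list averaged 6.08, 7.33, 6.78, 7.20 and 6.71 in exposed arrays and 6.22, 5.92, 5.79, 6.10 and 6.15 in controls. Replicate 1 lay within the control range and the other 4 above it. Ms4a1, the B cell surface protein CD20, measured 7.42, 8.81, 8.24, 8.93 and 8.02 in exposed arrays and 7.49, 7.05, 6.83, 7.09 and 7.28 in controls. Its change was 1.14 ± 0.34 (SE, adjusted p = 0.0262) and 1.35 ± 0.35 (adjusted p = 0.00847) without replicate 1. Cd22, an inhibitory receptor of B cells, rose by 1.04 (adjusted p = 0.00202), and Fcer2, the low-affinity IgE receptor CD23, by 1.13 (adjusted p = 0.0141). The call of Ms4a1 was lost in 5 of the 14 alternatives, including those without exposed replicate 2 or 4 or control replicate 2, 3 or 4, with adjusted p of up to 0.105. The call of Fcer2 was lost in 2 of the 14 alternatives, including those without exposed replicate 2 or 4, with adjusted p of up to 0.0624. The count of 7 was 1 without exposed replicate 2 or without exposed replicate 4, and 3 without control replicate 2 or 3.

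The counts for T cell and antigen presentation genes depended on single arrays. Of 17 T cell genes 5 rose with all arrays and 9 without replicate 1, and leaving out single arrays gave 0 to 9, with 0 when exposed replicate 4 was left out. Cd3d, a chain of the T cell receptor complex, measured 7.61, 9.10, 8.50, 8.97 and 8.40 in exposed arrays and 7.94, 7.69, 7.59, 7.94 and 7.72 in controls. Replicate 1 lay among the controls, and the change was 0.74 ± 0.22 (SE, adjusted p = 0.0255) and 0.97 ± 0.21 (adjusted p = 0.00217) without it. Of 12 dendritic cell and MHC class II genes 5 rose with all arrays and 10 without replicate 1, and 2 were called without exposed replicate 2 or 4 or control replicate 2 or 3. RT1-Db1, a rat class II chain, rose by 0.49 (adjusted p = 0.00251) and by 0.62 (adjusted p = 6.95e-05) without replicate 1. Ciita, the class II transactivator, rose by 0.66 (adjusted p = 0.0383). The call of Cd3d was lost in 6 of the 14 alternatives, including those without exposed replicate 2 or 4 or control replicate 2, 3 or 5, with adjusted p of up to 0.109. The call of Ciita was lost in 9 of the 14 alternatives, including those without exposed replicate 2 or 4 or control replicate 2, 3, 4 or 5, with adjusted p of up to 0.148. Ccl17, a chemokine of dendritic cells that acts on CCR4, measured 5.53, 6.92, 6.37, 7.15 and 6.19 in exposed arrays and 5.20, 5.37, 5.39, 5.29 and 5.47 in controls, with a change of 1.09 ± 0.24 (SE, adjusted p = 0.00224). Its exposed arrays all lay above the controls, with replicate 1 lowest. A2m, alpha-2-macroglobulin, a protease inhibitor of the rat acute phase, rose by 1.82 (adjusted p = 0.00106) and by 2.06 (adjusted p = 0.000332) without replicate 1.

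Cytotoxic cell genes went the other way. Of 12 measured NK and cytotoxic cell genes 0 rose and 5 fell with all arrays, with a median of -0.42; without replicate 1, 1 fell and the median was -0.30. Gzma, a granule protease of these cells, measured 6.44, 7.44, 6.95, 6.94 and 7.23 in exposed arrays and 8.42, 7.43, 7.83, 7.90 and 7.74 in controls. Replicate 1 was lowest and control replicate 1 highest, and exposed replicate 2 overlapped with control replicate 2. Its change was -0.87 ± 0.25 (SE, adjusted p = 0.0245), and -0.73 ± 0.26 (adjusted p = 0.0703) without replicate 1, where it was not called. Gzmb, another granule protease, and Klrd1, the NK receptor CD94, were likewise called with all arrays alone: the difference of Gzmb was -0.79 (adjusted p = 0.0267), or -0.69 (adjusted p = 0.0664) without replicate 1, and that of Klrd1 -0.47 (adjusted p = 0.0171), or -0.34 (adjusted p = 0.0804). Ncr1, the NK activating receptor NKp46, fell both ways, by 0.43 (adjusted p = 0.00717) and 0.42 (adjusted p = 0.0127). Leaving out exposed replicate 4 or control replicate 1 also gave a count of 1.

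Fkbp5, a co-chaperone of the glucocorticoid receptor that glucocorticoids induce, had the smallest adjusted p of all genes in the comparison with controls. It measured 8.18, 8.61, 8.88, 8.79 and 8.28 in exposed arrays and 6.34, 6.38, 6.75, 6.83 and 6.91 in controls. The lowest exposed array stood more than 1 log2 unit above the highest control, and replicate 1 was lowest by a small margin. The change was 1.91 ± 0.17 (SE), or 3.75-fold, with an adjusted p of 4.9e-10, and 2.0 ± 0.18 (adjusted p = 4.15e-10) without replicate 1. Of 11 measured glucocorticoid-responsive genes 4 rose and 0 fell, with and without replicate 1, and the median was 0.44. Tsc22d3, the leucine zipper protein GILZ, measured 11.56, 11.66, 11.69, 11.92 and 11.53 in exposed arrays and 10.83, 10.92, 11.17, 11.16 and 11.24 in controls. Its groups did not overlap, and the change was 0.61 ± 0.10 (SE, adjusted p = 5.67e-05). Klf9, a Krüppel-like transcription factor, rose by 0.44 (adjusted p = 0.00346), and Mt2A, a metallothionein that also binds metals, by 0.65 (adjusted p = 0.0125).

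Of 15 clock genes 4 rose and 1 fell, and without replicate 1 5 rose and 1 fell. Dbp and Nr1d1, output and repressor genes of the clock, rose by 0.51 (adjusted p = 0.0122) and 0.48 (adjusted p = 0.00772), and Per3, a period gene, by 0.42 (adjusted p = 0.0334). Bmal1, the activator whose messenger peaks opposite to theirs, fell by 0.42 (adjusted p = 0.0187). The call of Per3 was lost in 8 of the 14 alternatives, including those without exposed replicate 2, 3 or 4 or control replicate 1, 2, 4 or 5, with adjusted p of up to 0.112. The call of Bmal1 was lost without exposed replicate 3 (adjusted p = 0.0623). The sources used here do not give the time of day at which animals were killed, and its part in the clock and glucocorticoid results was not tested.

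The study's higher concentrations moved a set of inflammatory, nickel and detoxification genes, and 27 such genes, chosen from results at those concentrations, were followed here. The list is no independent evidence of direction at 0.08 mg/m3. With all arrays 6 rose, 6 fell and 15 were not called, and the median was 0.01; without replicate 1 7 rose and 5 fell. Tdh, which in rat encodes the mitochondrial threonine dehydrogenase, measured 4.82, 5.07, 5.10, 5.18 and 5.28 in exposed arrays and 3.83, 3.55, 3.57, 3.35 and 3.78 in controls. The groups were clearly apart, and the change was 1.47 ± 0.21 (SE), or 2.77-fold, with an adjusted p of 1.83e-05. Egln3, an oxygen-sensing prolyl hydroxylase that hypoxia and nickel induce, measured 7.70, 6.0, 5.60, 5.90 and 5.18 in exposed arrays and 4.71, 4.76, 4.72, 4.46 and 4.84 in controls. Replicate 1 was highest, all exposed arrays lay above the controls, and the change was 1.38 ± 0.24 (SE, adjusted p = 0.000175) and 0.97 ± 0.17 (adjusted p = 0.000229) without it. Ptges, the inducible prostaglandin E synthase, rose by 1.10 ± 0.23 (SE, adjusted p = 0.0019) and 0.88 ± 0.23 (adjusted p = 0.00994) without replicate 1. Lcn2, an iron-siderophore binding defence protein, rose by 0.91 (adjusted p = 0.0151), the anion exchanger Slc26a4 by 0.76 (adjusted p = 0.0352), and Hmox1, heme oxygenase 1, by 0.42 (adjusted p = 0.0258). For Hmox1 the groups overlapped, and for the other 5 they did not. The call of Lcn2 was lost in 3 of the 14 alternatives, including those without exposed replicate 4 or control replicate 2 or 3, with adjusted p of up to 0.0804. The call of Slc26a4 was lost in 5 of the 14 alternatives, including those without exposed replicate 3 or 4 or control replicate 2 or 3, with adjusted p of up to 0.132. The call of Hmox1 was lost in 7 of the 14 alternatives, including those without exposed replicate 3, 4 or 5 or control replicate 2 or 3, with adjusted p of up to 0.107.

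Several of the strongest responders at higher concentrations were not called. Saa3, an acute phase protein, measured 4.18, 4.09, 4.64, 5.12 and 4.60 in exposed arrays and 4.29, 4.13, 3.96, 4.23 and 4.43 in controls, which overlapped, and its change was 0.32 ± 0.30 (SE, adjusted p = 0.569). Spp1, osteopontin, differed by 0.52 ± 0.30 (SE, adjusted p = 0.299), Retnla, a resistin-like protein of type 2 inflammation, by 0.16 ± 0.27 (SE, adjusted p = 0.769), and Ccl2, a monocyte chemokine, by 0.07 ± 0.23 (SE, adjusted p = 0.902). Mmp12, the macrophage elastase, measured 6.59, 7.31, 7.45, 7.53 and 7.41 in exposed arrays and 6.79, 6.39, 6.31, 6.55 and 6.79 in controls. Replicate 1 lay within the controls and the other 4 above them. The gene was called without replicate 1, at 0.86 ± 0.28 (adjusted p = 0.0426), but not with all arrays, at 0.69 ± 0.27 (SE, adjusted p = 0.106). Of the 14 alternatives, 3 gave a call of Mmp12, the fit without replicate 1 included. Serpinb10, a serine protease inhibitor, fell and was called only without replicate 1, at -0.79 ± 0.25 (adjusted p = 0.0339) against -0.55 ± 0.26 (SE, adjusted p = 0.176) with all arrays.

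The 6 falls of the set with all arrays were those of Gsta3, Scin, Azgp1, Nqo1, Rnase3 and Upk1a. Gsta3, a glutathione S-transferase, measured 8.32, 7.89, 8.40, 7.98 and 8.24 in exposed arrays and 8.50, 9.14, 9.08, 9.11 and 9.08 in controls. Control replicate 1 lay well below the other controls but above every exposed array, and the change was -0.82 ± 0.18 (SE, adjusted p = 0.00255). Scin, scinderin, an actin-severing protein, changed by -1.01 ± 0.24 (SE, adjusted p = 0.00534), although control replicate 1 lay among the exposed arrays. Azgp1, zinc-alpha-2-glycoprotein, and Nqo1, the quinone reductase, changed by -0.77 (adjusted p = 0.000486) and -0.42 (adjusted p = 0.000582). Rnase3, an eosinophil-type ribonuclease, and Upk1a, a uroplakin, changed by -0.68 (adjusted p = 0.0251) and -0.65 (adjusted p = 0.0434), but neither was called without replicate 1, where the differences were -0.61 (adjusted p = 0.0582) and -0.57 (adjusted p = 0.092). Of 18 measured targets of the oxidative stress factor NRF2 1 rose, Hmox1, and 3 fell, which were Gsta3, Nqo1 and the glutathione peroxidase Gpx2 at -0.28 (adjusted p = 0.0246). Club cell genes had 1 call of 9, the fall of Gsta3, with and without replicate 1. Ciliated cell genes had 2 falls of 10 with all arrays and 0 without replicate 1: Ccdc113 changed by -0.47 (adjusted p = 0.0449) and -0.48 (adjusted p = 0.0537) without it, and Cfap126 by -0.36 (adjusted p = 0.0474) and -0.33 (adjusted p = 0.0838). Among all genes tested, 5.67% rose and 2.87% fell with all arrays, against 7.01% and 2.75% without replicate 1. The small counts of the NRF2, club cell and ciliated cell lists are not read as responses of these lists. The call of Gpx2 was lost in 5 of the 14 alternatives, including those without exposed replicate 2 or 4 or control replicate 2, 3 or 4, with adjusted p of up to 0.0719. Rnase3 lost its call in 4 of the 14 alternatives and Upk1a in 8, with adjusted p of up to 0.0785 and 0.125. Ccdc113 and Cfap126 lost theirs in 8 each, with adjusted p of up to 0.146 and 0.142.

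With symbols starting with LOC, RGD or ENSRNOG left out, the largest fall that separated the groups was that of Gmnn. It encodes geminin, which blocks a second round of DNA replication licensing in a cell cycle. It measured 7.47, 7.44, 7.20, 7.40 and 7.51 in exposed arrays and 8.06, 8.46, 8.40, 8.54 and 8.25 in controls. The exposed arrays lay within about 0.3 of each other and all below the lowest control, and the change was -0.94 ± 0.15 (SE), or 1.92-fold lower, with an adjusted p of 6.32e-05. The other 31 measured genes of DNA replication were not called with all arrays, and 2 of them rose without replicate 1: the helicase subunits Mcm3, at 0.47 (adjusted p = 0.0271) or 0.35 (adjusted p = 0.11) with all arrays, and Mcm5, at 0.50 (adjusted p = 0.0488) or 0.38 (adjusted p = 0.155). Of 34 mitosis genes 0 were called either way. Tox3, an HMG-box transcription factor, measured 8.40, 8.37, 8.41, 8.03 and 8.59 in exposed arrays and 9.0, 9.16, 9.05, 9.19 and 9.21 in controls, for a change of -0.76 ± 0.08 (SE, adjusted p = 4.2e-08). Every control exceeded every exposed array. Elavl2, a neuronal-type RNA-binding protein read near the low end of the scale, changed by -0.78 (adjusted p = 1.51e-05), and Serpini1, neuroserpin, by -0.76 (adjusted p = 0.00407). Esm1, the proteoglycan endocan that endothelium secretes, measured 8.01, 7.90, 7.90, 7.20 and 8.22 in exposed arrays and 8.62, 8.66, 8.58, 8.55 and 8.61 in controls, with a change of -0.76 ± 0.22 (SE, adjusted p = 0.0251). Replicate 4 was lowest. Nostrin, which traffics the endothelial nitric oxide synthase, and Flrt3, a membrane protein of cell adhesion, changed by -0.78 (adjusted p = 0.0131) and -0.77 (adjusted p = 0.0167) and were also lowest in replicate 4. Without exposed replicate 4, the calls of Esm1, Nostrin, Flrt3, Ttpa and Ccdc68 were lost, with adjusted p of up to 0.126, 0.0591, 0.0925, 0.0813 and 0.0719 over the 14 alternatives. The 13 endothelial marker genes had 0 calls. Cldn8, a claudin of tight junctions, and Ttpa, which carries vitamin E, changed by -0.74 (adjusted p = 0.00128) and -0.75 (adjusted p = 0.0137). Ccdc68 and C8h11orf65 completed the 12 largest falls together with Gzmb, Gsta3 and Azgp1, at -0.90 (adjusted p = 0.0181) and -0.87 (adjusted p = 0.000338).

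Besides the squamous list, those without a call with all arrays were alveolar type 1 (10 genes), alveolar type 2 (14), endothelium (13), goblet cell and airway secretion (13), mast cell (9), mitosis (34), interferon-induced genes (25), p53 targets (14), histone demethylases and DNA methylation (17), cartilage (13), stomach, thyroid or oesophageal gland (10), mesothelium (5) and red cell (3). Without replicate 1 the cartilage, interferon and p53 lists had 1 rise each and the other lists just named still 0. At an unadjusted p under 0.05, 3215 of all genes passed in limma, against 1147 called after adjustment. Of 28 chemokines 6 rose and 1 fell with all arrays, against 6 and 0 without replicate 1, and of 14 lymphocyte homing genes 4 rose either way, most of them named above. Matrix remodelling genes had 2 rises of 26 with all arrays and 5 without replicate 1, and stress response genes 2 of 24 and 4. Over all genes 5.67% rose and 2.87% fell with all arrays, against 7.01% and 2.75% without replicate 1. The small counts in this paragraph are not read as responses of the lists. Plasma cell (7 genes), neutrophil (9), lymphatic endothelium (7), Schwann cell and neuron (12) and cholesterol synthesis (17) had 1 rise each, and alveolar macrophage (8), cytokine (19), xenobiotic metabolism (20) and immediate early (20) lists 1 rise and 1 fall each. Without replicate 1 the cholesterol list had 0 calls, the macrophage list 1 rise and 0 falls, the cytokine list 2 rises and 2 falls and the immediate early list 3 rises and 1 fall, and the other 5 of these lists had the counts just given. Of 22 hypoxia targets 5 rose with all arrays, of 14 glycolysis genes 7, and of 19 fatty acid genes 6; without replicate 1 these counts were 4, 3 and 3. When the 10 arrays were modelled alone the hypoxia count was 0 and the glycolysis count 1.

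The other concentrations at 4 weeks place these values. Against the same controls, the median change of the heart list was 1.89 at 0.04, 1.46 at 0.08, 0.29 at 0.15 and -0.05 at 0.60 mg/m3. The smooth muscle medians were 0.90, 0.79, -0.07 and -0.13 at the same concentrations. For B cell genes they were 1.24, 0.92, -0.06 and 0.55. These comparisons share their controls, so only the direct differences between exposed groups bear on whether concentrations differ. Numbers called against controls were 1734 genes at 0.04 (12.9%), 1147 at 0.08, 470 at 0.15 (3.5%) and 2334 at 0.60 mg/m3 (17.4%).

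Between 0.08 and 0.04 mg/m3 the direct difference had 1 called gene (0.00744%), Fkbp5, with and without replicate 1. By limma 502 genes passed an unadjusted p under 0.05, and 214 without replicate 1. Fkbp5 was higher at 0.08 mg/m3 by 0.96 ± 0.17 (adjusted p = 0.0244), with the 0.08 mg/m3 arrays at 8.18, 8.61, 8.88, 8.79 and 8.28 and the 0.04 mg/m3 arrays at 7.24, 7.33, 7.52, 7.64 and 8.21. The highest 0.04 mg/m3 array lay just above the lowest 0.08 mg/m3 array. Replicate 3 of 0.04 mg/m3 also held skeletal muscle genes, with a list mean of 6.37 against 4.30 to 4.47 in the other 0.04 mg/m3 arrays, and its mean of the squamous epithelium list was 6.33 against 5.32 to 5.45. Leaving out this array and replicate 1 of 0.08 mg/m3 gave the same 1 call.

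Against 0.15 mg/m3, 2494 genes differed (18.6%), with 1412 higher (10.5%) and 1082 lower (8.05%) at 0.08 mg/m3. Without replicate 1 the count was 2764 (20.6%). After centring of the arrays 943 were higher and 1560 lower, so the balance of directions depended on the scaling. Of the heart muscle genes 11 of 22 were higher at 0.08 mg/m3 and 0 lower, of smooth muscle genes 14 of 20 and 0, of B cell genes 7 of 10 and 0, and of fibroblast genes 11 of 22 and 0. Actn2 was higher at 0.08 mg/m3 by 2.02 ± 0.35 (adjusted p = 9.65e-05), Actg2 by 1.35 ± 0.20 (adjusted p = 9.18e-06), and Glycam1 by 2.36 ± 0.64 (adjusted p = 0.00808). Of 34 mitosis genes 24 were lower at 0.08 mg/m3 and 0 higher. The largest deficit at 0.08 mg/m3 was that of Saa3, at -2.95 ± 0.30 (adjusted p = 6.2e-09), followed by Retnla at -2.65, Tdh at -2.10 and Ptges at -1.96. For Fkbp5 the difference from 0.15 mg/m3 was -0.01 ± 0.17 (adjusted p = 0.983). Its list behaved otherwise, for 7 of the 11 measured glucocorticoid-responsive genes were higher at 0.08 mg/m3 and 0 lower.

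Against 0.60 mg/m3, 3448 genes differed (25.7%), with 1716 higher (12.8%) and 1732 lower (12.9%) at 0.08 mg/m3, and 3485 (25.9%) without replicate 1. Heart muscle genes were higher at 0.08 mg/m3 in 16 of 22 members and smooth muscle genes in 15 of 20, with 0 lower in either list. Mitosis genes were lower in 28 of 34 and interferon-induced genes in 24 of 25. Saa3 differed by -4.18 ± 0.30 (adjusted p = 5.54e-14), Spp1 by -4.03 and Slc26a4 by -3.18. Gmnn was lower at 0.08 than at 0.60 mg/m3 by 0.46 ± 0.15 (adjusted p = 0.0197), while its difference from 0.15 mg/m3 was -0.31 ± 0.15 and was not called (adjusted p = 0.146).

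**Figure D4:**
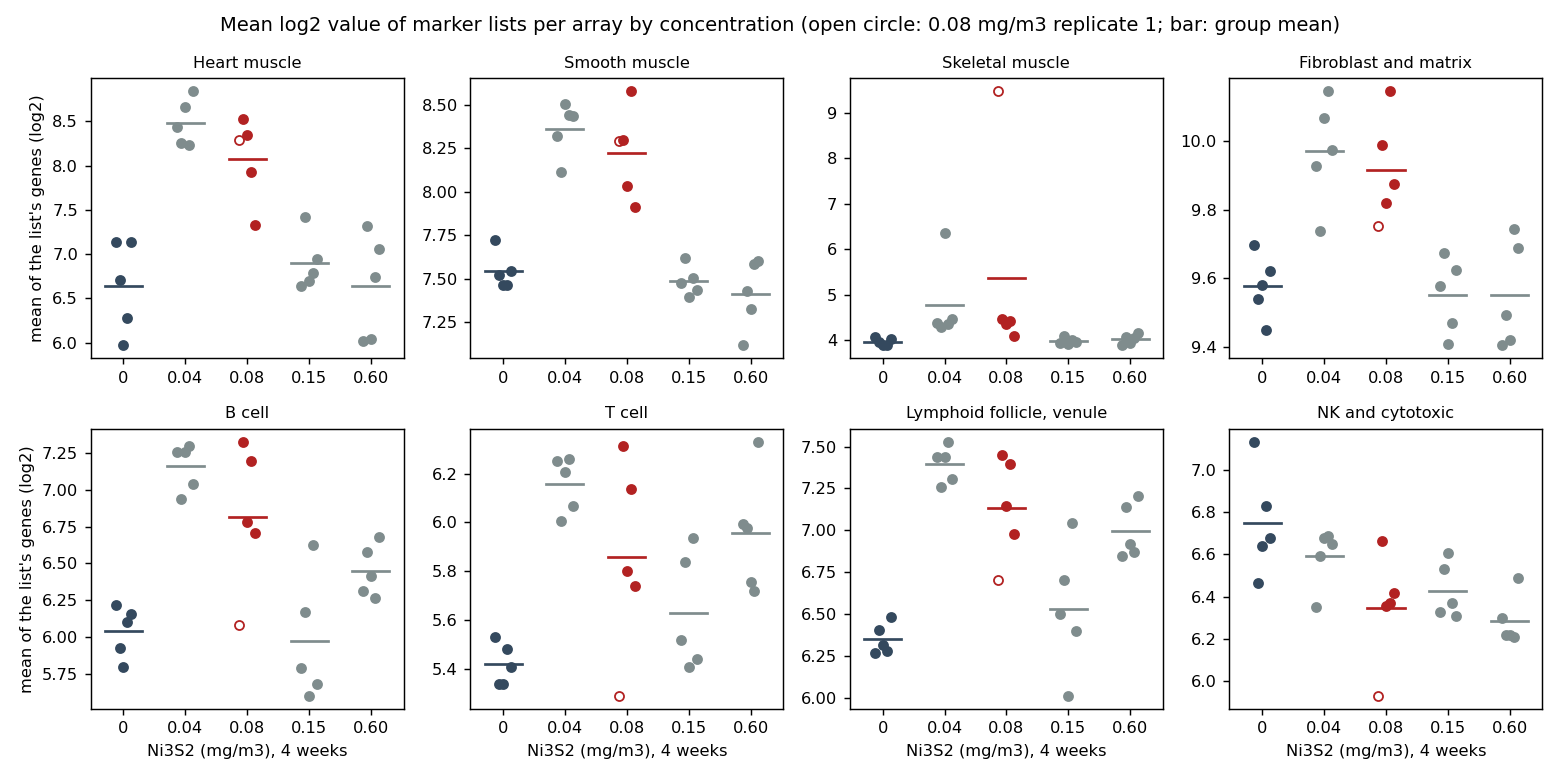
Mean log2 value of the genes of 8 cell type lists in each 4-week array, by concentration of nickel subsulfide (mg/m3); bars are group means of 5 arrays and the open circle is 0.08 mg/m3 replicate 1. Heart and smooth muscle lists are high at 0.04 and 0.08 mg/m3 and near the controls at 0.15 and 0.60 mg/m3.

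**Figure D5:**
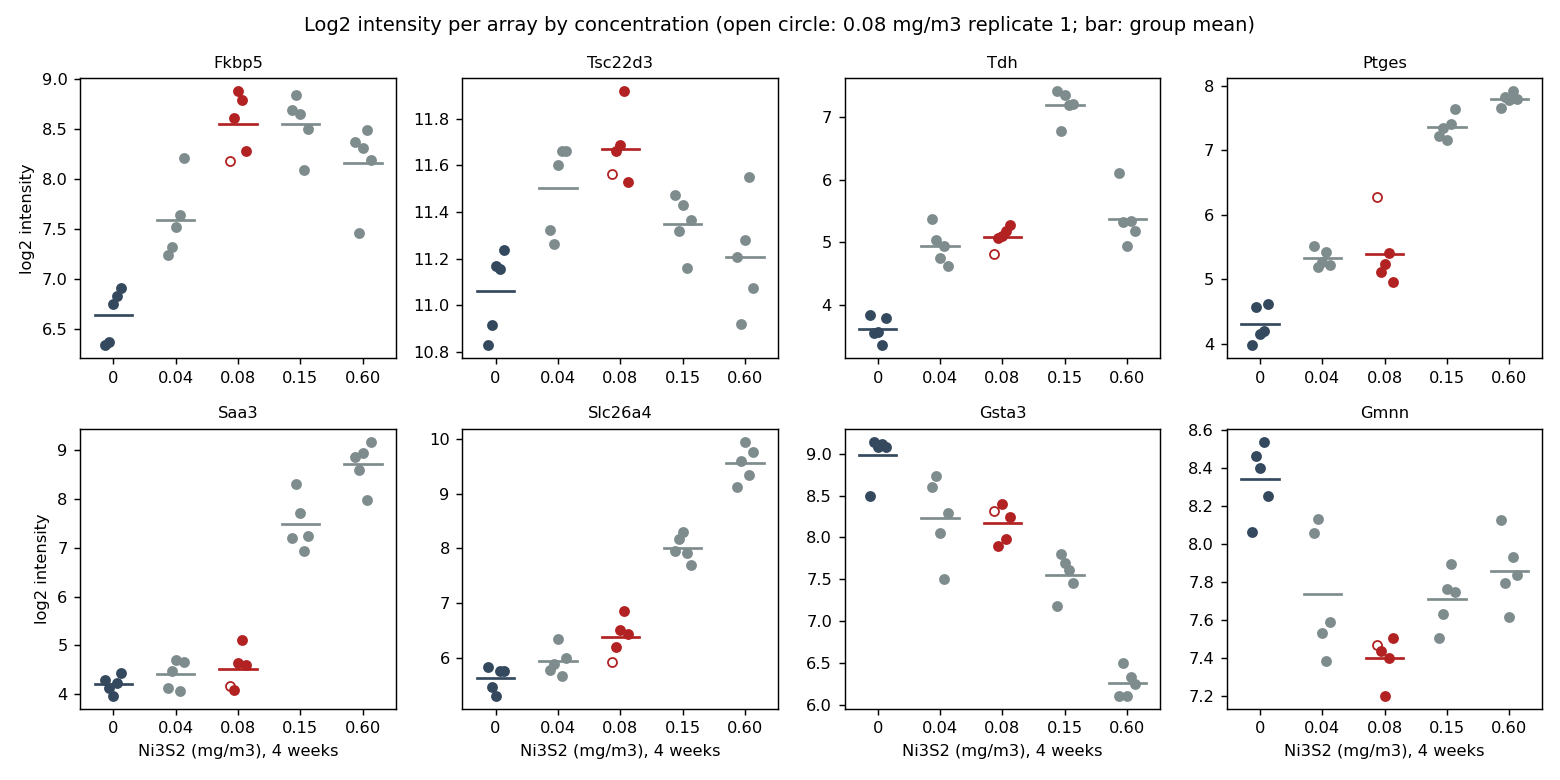
Log2 intensity of 8 genes in each 4-week array, by concentration of nickel subsulfide (mg/m3); bars are group means of 5 arrays and the open circle is 0.08 mg/m3 replicate 1. Saa3 at 0.08 mg/m3 overlaps with controls and is higher at 0.15 and 0.60 mg/m3, whereas Fkbp5 at 0.08 mg/m3 lies near its level at 0.15 mg/m3.

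The response at 4 weeks was also set against that at 1 week. The change at 0.08 mg/m3 differed between the times in 5964 genes (44.4%), 2877 higher (21.4%) and 3087 lower (23%) at 4 weeks, and in 5996 (44.6%) without replicate 1. The controls of the times differed in 9873 genes (73.5%), and the difference between responses includes that difference. The 5 largest positive differences were those of Glycam1, 2.95 ± 0.90 (adjusted p = 0.00701), Ccl19, Des, Slc2a4 (the insulin-regulated glucose transporter of muscle and fat) and Flnc (the filamin of muscle). Glycam1 changed by 2.37 at 4 weeks and by -0.57 at 1 week, while its controls differed by -2.12 (4 weeks minus 1 week). Des changed by 1.56 at 4 weeks and by -1.11 at 1 week, with a difference between its controls of -2.95. The response was more positive at 4 weeks in 7 of the 22 heart muscle genes and less positive in 0. The median change of the list at 1 week was 0.89, against 1.46 at 4 weeks, and for smooth muscle -0.31 against 0.79.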

How the data were processed

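The deposited values are log2 intensities in 1 table of 31042 probe sets, computed by RMA in Partek per the submitters' processing notes. The sources used here give neither versions nor scan dates, nor which arrays were normalised together. Values were not transformed again and ran from 2.22 to 13.8. The platform's gene table gave 1 symbol to 19063 probe sets, several to 572 and none to 11407; only the first were used, and for the 3985 genes with several probe sets the brightest on average over the arrays stood for the gene, which left 13438.

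A linear model of 10 group means, 5 arrays each, was fitted over 50 arrays with limma 3.58.1 (lmFit, eBayes) in R 4.3.3, and again over 49 arrays without exposed replicate 1. Tests were two-sided, with Benjamini-Hochberg adjustment over 13438 genes in each contrast and a call at 0.05. The labels do not say whether arrays were processed in batches.

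Comparisons, members and 54 gene lists (783 of 911 symbols measured) were chosen with earlier results of these data known, so no list or call is independent of them. Named genes leave out symbols starting with LOC, RGD or ENSRNOG and are, of the called genes whose groups do not overlap, those with the 12 largest rises and falls, with all arrays and without replicate 1; up to 6 called members of each list, and any member of the muscle, squamous and lymphoid lists; the 10 genes in which replicate 1 stood furthest above the rest; the 5 largest rises and 5 largest falls of each other difference; and all 27 genes of the set from higher concentrations. Alternatives were array weights, omission of the dimmest 25% of genes, centring, quantile normalization, an intensity trend, every probe set tested or averaged per gene, the replicate number as a block, models of the 10 or of the 4-week arrays alone, a minimum of 1.5-fold and omission of each array in turn. Lavage, histology and nickel burden were not used here.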

Additional observations from a re-analysis of the deposited data

Results flagged for a closer look

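Arrays far from the other 4 of their group were looked for in 59 genes and 27 list means, 172 groups of 5 arrays in all, with Dixon's ratio (the gap to the nearest array over the whole range; critical value 0.71). Chance alone gives about 1 in 20 groups of unselected values, and the count is not set against that rate, because genes were included for the place of replicate 1. In all 28 were found: 18 were exposed replicate 1, 1 was another exposed array and 9 were controls. For 10 genes that had been chosen because replicate 1 was highest, the ratios of that array were 0.993 for Stfa3, 0.981 for S100a7l2, 0.964 for Myl11, 0.987 for Crct1, 0.967 for Tnnc2, 0.945 for Krt13, 0.973 for Mt4, 0.967 for Loricrin, 0.990 for Sprr1a and 0.949 for Myh8. Myl11, Tnnc2 and Myh8 encode proteins of skeletal muscle fibres, and Krt13, Crct1, Loricrin and Sprr1a proteins of stratified squamous epithelium. Replicate 1 was also high in the means of the skeletal muscle list (0.931), the squamous list (0.924) and the list of stomach, thyroid or oesophageal gland genes (0.936). The last list shares Krt4 and Krt13 with the squamous list, and their part in its mean was not tested. Its median change was 0.09 with all arrays and 0.05 without replicate 1.

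Replicate 1 was the lowest exposed array for Mmp12 (0.763), Ccl7 (0.755), Slc39a2 (0.739), Rnase3 (0.947) and Pla2g2d (0.744). Exposed replicate 4 was highest for Spp1 (0.907). Among controls, replicate 1 was lowest for Gsta3 (0.895) and in the means of club cell genes (0.736) and goblet cell genes (0.731), and highest for Loricrin (0.885) and in the mean of plasma cell genes (0.715). Control replicate 3 was lowest for Nostrin (0.792), Mt4 (0.741) and Retnla (0.835), and control replicate 5 highest for Tnnc2 (0.751).

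The response to 0.08 mg/m3 differed between 4 weeks and 1 week in 5964 genes by the limma contrast of the responses. The largest positive differences (4 weeks minus 1 week) were 2.95 for Glycam1, 2.76 for Ccl19, 2.67 for Des, 2.42 for Slc2a4 and 2.38 for Flnc. The largest negative ones were -2.06 for Gp2, -1.89 for Gzma, -1.77 for Hars1, -1.73 for Hyls1 and -1.70 for Gabrp. Controls of the times differed in 73.5% of genes, and the time and its controls cannot be told apart here.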

How the results depend on the processing

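The count of 1147 called genes was 3440 with array weights, 2364 when only the 4-week arrays were modelled, 802 when only the 10 arrays were, and 366 with a minimum of 1.5-fold. Leaving out single arrays gave 606 to 1472 calls, with 606 without exposed replicate 4 and 683 without control replicate 2. The 1311 calls without replicate 1 became 4167 with array weights, 3048 with the 4-week arrays alone and 392 with a minimum of 1.5-fold; leaving out a further array gave 436 to 1917, with 436 without exposed replicate 4, 650 without exposed replicate 2 and 778 without control replicate 2. The cause of these shifts was not tested, apart from the minimum fold, which only removes genes. Replicate numbers were not used to pair the samples in the main fit. Deviations of same-numbered arrays from their group means correlated at -0.087, -0.380, 0.0035, 0.256 and 0.064. These were not set against differently numbered arrays, so they cannot decide whether the numbers pair samples. With the replicate number as a block 1095 genes were called, or 1287 without replicate 1. Of the 148 called genes that were followed singly, 66 stayed called in all 14 alternatives and 0 changed sign. Of the same 148, 53 lost the call when only the 10 arrays were modelled. Some genes named above as called were not followed in this way, among them Tnnt2, Myl4, Mybpc3, Tagln, Acta2 and Myh11. The other differences between groups stayed within 1.5 times their count under centring, the block and omission of replicate 1. The number of arrays limits the precision, and the table holds no background measure, so no level is called absent.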

Other observations

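Secreted defence proteins and metal transporters also held calls. Slpi, the secretory leukocyte protease inhibitor of airway epithelium, measured 12.88, 11.90, 11.46, 11.88 and 11.31 in exposed arrays and 10.85, 10.61, 10.67, 10.53 and 10.75 in controls. Every exposed array lay above every control and replicate 1 was highest, and the change was 1.20 ± 0.19 (SE, adjusted p = 4.27e-05) and 0.95 ± 0.16 (adjusted p = 0.000163) without replicate 1. Serpina3n, a protease inhibitor of the acute phase, changed by 0.74 (adjusted p = 0.0277). The call of Serpina3n was lost in 5 of the 14 alternatives, including those without exposed replicate 2, 3 or 4 or control replicate 3 or 5, with adjusted p of up to 0.113. Of 17 genes that bind or carry metals 3 rose, with and without replicate 1: Mt2A, the zinc importer Slc39a14 by 0.56 (adjusted p = 0.00302) and Ndrg1, a gene that nickel and hypoxia induce in cells, by 0.36 (adjusted p = 0.0257). The call of Ndrg1 was lost in 7 of the 14 alternatives, including those without exposed replicate 4 or control replicate 2, 3, 4 or 5, with adjusted p of up to 0.138. Of 22 genes of lysosomes and lipid handling 4 rose with all arrays and 5 without replicate 1, among them Apoe, the apolipoprotein of macrophages, by 0.52 (adjusted p = 0.00519), Acp5, the tartrate-resistant acid phosphatase, by 0.53 (adjusted p = 0.00375) and the protease cathepsin D, Ctsd, by 0.44 (adjusted p = 0.0178). The call of Ctsd was lost in 3 of the 14 alternatives, including those without exposed replicate 3 or control replicate 2 or 3, with adjusted p of up to 0.0646. Of 17 genes of iron and bone morphogenetic protein signalling 2 rose with all arrays, or 4 without replicate 1. The 2 were Hjv and Hamp, given above with the muscle genes. In this list 2 genes fell both ways, Bmp4, a ligand, by 0.51 (adjusted p = 0.00413) and Id4, a target of such signals, by 0.39 (adjusted p = 0.0115). Over all genes 5.67% rose and 2.87% fell with all arrays, against 7.01% and 2.75% without replicate 1. The call of Id4 was lost without control replicate 2 (adjusted p = 0.0502).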
